A study of Mus musculus with 8 samples.

Results

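The 10 genes described here, all known from cytotoxic lymphocytes and natural killer (NK) cells, were followed in naive CD4 T cells of mice in which Satb1, a chromatin-organising DNA-binding protein of T cells, can be deleted. They are the receptors Crtam, Klrd1, Cd7 and Cd8b1, the granule genes Ctsw, Prf1, Gzmm and Nkg7, and the chemokines Ccl5 and Xcl1. These 10 genes were chosen by name from 53465 in the raw count table, with their levels and their KO and WT values in these libraries already known, so the values below describe them. Of the 10, 9 have a row in the deposited normalized table of 16418 genes, and Xcl1 does not. The lowest total of reads for a gene in that table was 10, and Xcl1 had 9.

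RNA came from sorted CD3+CD4+CD25-CD44low/-CD62L+ cells labelled as from spleen and lymph node (the extraction protocol names spleen alone), and every mouse carried Satb1fl/fl with CD4-CreERT2wt/+, a tamoxifen-activated Cre recombinase driven by CD4 sequences. The 4 KO samples (KO_2907, KO_2908, KO_2909 and KO_2910) were from tamoxifen-treated mice, and the 4 WT samples (WT_2911, WT_2913, WT_2914 and WT_2915) from untreated mice of that same genotype. Tamoxifen and the intended deletion therefore cannot be told apart, and floxed alleles and Cre are shared by both groups. The labels give neither age nor sex, and do not say whether each sample was a separate animal, so the tests speak only of the spread among these samples, which may be technical.

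Libraries held 7544075 to 9253620 reads in KO and 5227758 to 21998174 in WT. Levels are given as TMM-scaled CPM, reads brought to one library size, where TMM scales libraries so that most genes match. Satb1 itself averaged 909.9 ± 87.2 CPM in the KO libraries against 1033 ± 41.4 in WT (SD, n = 4 each). Its log2 fold change was -0.18 (SE 0.0586) and missed the threshold, an adjusted p of 0.05 (edgeR quasi-likelihood test, adjusted p = 0.0582). KO thus names a group here, and the counts, which cover the whole gene and not the deleted part alone, do not show that Satb1 RNA was lost. Of 11772 genes tested, 6.39% were called changed, 2.41% lower and 3.98% higher in KO. In 11.1% of tested genes no KO library overlapped the WT range, and the median log2 fold change was -0.00 over all of them.

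Cytotoxic lymphocytes kill by releasing granules in which perforin makes pores for serine proteases called granzymes. NK-type receptors tune that release, often by reading class I molecules on the other cell, and chemokines such as CCL5 and XCL1 call in further cells. Naive CD4 T cells are not cytotoxic, and the CD4 fate is held by the factor ThPOK, encoded by Zbtb7b, opposite RUNX3 in the CD8 fate.

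Of the 10 genes, 4 were lower in KO: Crtam, Ctsw, Cd7 and Klrd1. None was called higher. Prf1, Gzmm and Cd8b1 were tested and not called, and Nkg7, Ccl5 and Xcl1 had too few reads for the fit. In bulk RNA, fewer cells that carry a transcript and less of it per cell cannot be told apart. Since the genes were chosen with these values known, 4 of 7 tested is given beside the 2.41% called lower among all genes with nothing read from it. The same 4 genes were those in which no KO library reached any WT library. Among all tested genes, 11.1% had no overlap in either direction, and nothing is read from this count either.

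**Figure D1:**
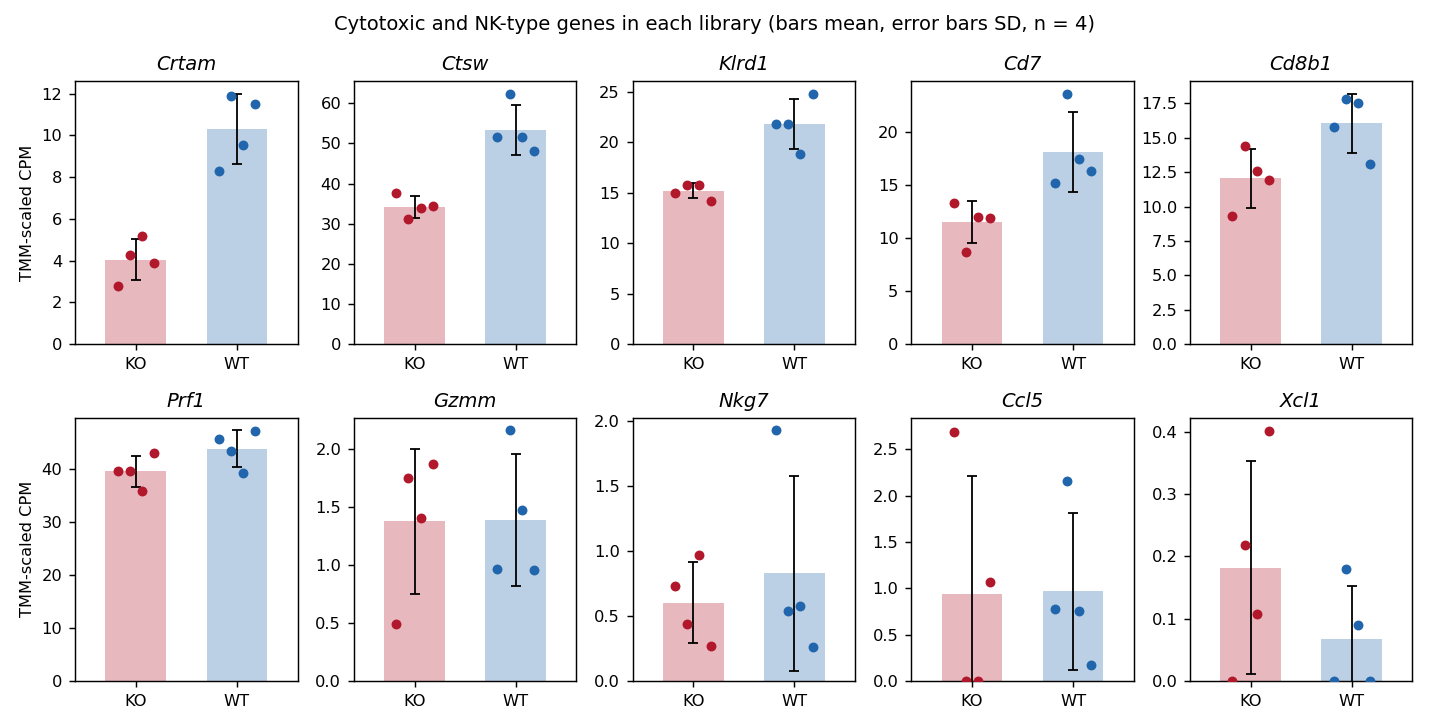
Level of each of the 10 genes in every library, in TMM-scaled CPM (vertical axes differ and start at 0). Points are libraries, bars are means and error bars SD with n = 4. Crtam, Ctsw, Klrd1 and Cd7 show no overlap between KO and WT, and the other 6 genes do.

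By CPM, the genes did not all fit a description as low in CD4 cells. Averaged over the 8 libraries, Ctsw (43.8 CPM) lay above 58.7% of the tested genes and Prf1 (41.7 CPM) above 57.6%. Klrd1 (18.5 CPM), Cd7 (14.8 CPM) and Cd8b1 (14.1 CPM) lay above 38.2%, 33.9% and 33.0%, and Crtam (7.17 CPM) above 23.4%. Gzmm (1.38 CPM) lay above 3.13%, while Ccl5, Nkg7 and Xcl1 averaged 0.953, 0.715 and 0.125 CPM. These ranks take no account of gene length, for example 914 bases of merged exons in Nkg7 and 5131 in Crtam.

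Levels of different genes were compared per kilobase (kb) of merged exons. In WT, Ctsw was highest at 28.3 ± 3.30 CPM per kb, and its lowest WT library exceeded the highest WT library of the next gene. Klrd1 (17.0 ± 1.94), Prf1 (17.0 ± 1.34) and Cd7 (16.0 ± 3.32 CPM per kb) followed, with overlapping libraries. Cd8b1 came next at 10.8 ± 1.47 CPM per kb, apart from its neighbours in the order. Crtam (2.01 ± 0.330), Ccl5 (1.01 ± 0.880), Gzmm (0.943 ± 0.387), Nkg7 (0.905 ± 0.819) and Xcl1 (0.129 ± 0.165 CPM per kb) closed the order, each overlapping the next (SD, n = 4).

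Among the receptors, Crtam differed most. It encodes an immunoglobulin-family receptor of activated CD8 T cells, NK cells and some CD4 T cells, and lies at chr9:40969691-41004628 on the minus strand (GRCm38, the assembly behind mm10, as are all positions here). The KO libraries had 2.81, 4.28, 5.19 and 3.88 CPM, from 23, 39, 48 and 29 reads. The WT libraries had 8.30, 11.9, 9.54 and 11.5 CPM, from 43, 66, 214 and 133 reads. Every WT library was above every KO library, and KO_2907 was the lowest. The mean was 4.04 ± 0.985 CPM in KO against 10.3 ± 1.69 in WT (SD, n = 4 each), 60.6% lower in the fit, with a log2 fold change of -1.34 (SE 0.206, edgeR adjusted p = 3.64e-05). Cadm1, which encodes the CRTAM ligand, had 9 reads in KO (0, 0, 5 and 4) and 0 in WT, which allows up to 0.0671 CPM in the pooled WT libraries by counting error alone.

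Klrd1 encodes CD94, the chain that pairs with NKG2 receptors on NK cells and reads the nonclassical class I molecule Qa-1. It lies in the NK gene complex at chr6:129591782-129598775 on the plus strand. KO libraries stood close together at 15.0, 15.8, 15.8 and 14.2 CPM, and WT libraries were higher at 21.8, 21.8, 18.8 and 24.8 CPM. The groups did not overlap, from a highest KO library of 15.8 to a lowest WT library of 18.8 CPM. Klrd1 was 29.8% lower in KO (15.2 ± 0.757 against 21.8 ± 2.48 CPM, SD, n = 4 each), a log2 fold change of -0.51 (SE 0.124, edgeR adjusted p = 0.00837). Without WT_2915, the WT library with the highest value, the log2 fold change was -0.43 and the call was lost (edgeR adjusted p = 0.0595).

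The partners of CD94 were scarcely read. Klrc1, which encodes NKG2A, had 0 reads in all 8 libraries, so levels up to 0.0882 CPM (KO pooled) and 0.0671 CPM (WT pooled) are possible. Klrc2, which encodes NKG2C, had 0 reads in KO and 7 in WT. Klrk1, which encodes the CD94-independent receptor NKG2D, had 82 reads in KO and 109 in WT and a log2 fold change of -0.01 (SE 0.358, edgeR adjusted p = 0.997). H2-T23, which encodes Qa-1, the ligand of CD94 with NKG2A, was well expressed and rose from 344.2 ± 32.7 to 410.7 ± 17.4 CPM (SD, n = 4 each; log2 fold change 0.26, edgeR adjusted p = 0.0061). Its call was lost when WT_2911 and WT_2914 were left out together (edgeR adjusted p = 0.121).

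Cd7, an immunoglobulin-family surface molecule of T and NK cells, lies at chr11:121036747-121039418 on the minus strand. Its KO libraries had 13.3, 8.66, 12 and 11.9 CPM. The WT libraries had 15.2, 23.6, 17.4 and 16.3 CPM, with WT_2913 the highest. No KO library reached a WT library, although KO_2907 and WT_2911 stood near each other. Cd7 was 36.3% lower in KO (11.5 ± 1.98 against 18.1 ± 3.76 CPM, SD, n = 4 each), a log2 fold change of -0.65 (SE 0.154, edgeR adjusted p = 0.00672). An antisense gene, Gm11775, spans all of Cd7 and had 0 reads in every library.

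Cd8b1 encodes the beta chain of the CD8 co-receptor and lies at chr6:71322788-71337494 on the plus strand. KO libraries had 9.28, 14.4, 12.6 and 11.9 CPM, and WT libraries 15.8, 17.8, 17.5 and 13.1 CPM. The groups overlapped, since KO_2908 was above WT_2915. The means were 12.1 ± 2.11 CPM in KO against 16.1 ± 2.18 in WT (SD, n = 4 each), and the log2 fold change, -0.41 (SE 0.150), was not called (edgeR adjusted p = 0.113). Cd8a, which encodes the alpha chain that CD8 beta needs to reach the surface, had 10 reads in KO and 18 in WT, against 413 and 725 for Cd8b1. In WT, Cd8a was at 0.0711 CPM per kb and Cd8b1 at 10.8 CPM per kb.

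The granule genes differed from each other. Ctsw encodes cathepsin W, a papain-type cysteine protease of NK and CD8 T cells, and lies at chr19:5465043-5468507 on the minus strand. KO libraries had 37.7, 31.1, 33.8 and 34.3 CPM, and WT libraries 51.5, 62.4, 51.5 and 48.0 CPM. The highest KO library (37.7) stayed below the lowest WT library (48.0 CPM), and WT_2913 was the highest. The fit put Ctsw 35.4% lower in KO (34.2 ± 2.71 against 53.4 ± 6.22 CPM, SD, n = 4 each), a log2 fold change of -0.63 (SE 0.0929, edgeR adjusted p = 2.01e-05). Its annotated span shares 9 bases with Fibp on the opposite strand, and Fibp stood at 0.02 on the log2 fold change scale (edgeR adjusted p = 0.953).

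Prf1 encodes perforin and lies at chr10:61297833-61304680 on the plus strand. KO libraries had 39.6, 39.7, 35.9 and 43.0 CPM, and WT libraries 45.7, 43.4, 39.2 and 47.1 CPM. The groups overlapped, with means of 39.5 ± 2.91 CPM in KO against 43.9 ± 3.47 in WT (SD, n = 4 each). Its log2 fold change, -0.14 (SE 0.0902), was not called (edgeR adjusted p = 0.437). Per kb, Prf1 stood at 15.3 CPM in KO, where Ctsw stood at 18.1, and it rested on 1339 reads in KO and 1901 in WT.

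Granzyme RNA was far scarcer than perforin RNA (in WT, 0.943 CPM per kb for Gzmm against 17.0 for Prf1). Gzmm, at chr10:79689020-79695261 on the plus strand, encodes granzyme M and had 4, 16, 13 and 14 reads in the KO libraries and 5, 12, 33 and 11 in the WT libraries. Both groups averaged near 1.38 CPM (1.38 ± 0.627 in KO and 1.39 ± 0.570 in WT, SD, n = 4 each), and the log2 fold change was 0.02 with an SE of 0.423 (edgeR adjusted p = 0.99). Gzma had 7 reads in KO and 17 in WT, Gzmb 3 and 6, Gzmk 1 and 15, and Gzmc 49 and 39. Gzmd and Gzmf had 0 reads.

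Nkg7 encodes a membrane protein of cytotoxic granules and lies at chr7:43437073-43438249 on the plus strand. Its KO libraries had 6, 4, 9 and 2 reads and its WT libraries 10, 3, 13 and 3. WT_2911 held the highest level, 1.93 CPM, and the groups overlapped. Pooled reads gave a KO to WT ratio of 0.952, with a 95% interval for counting error of 0.516 to 1.73 (exact conditional interval), and an exact two-sided permutation test on CPM gave p = 0.771.

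**Figure D2:**
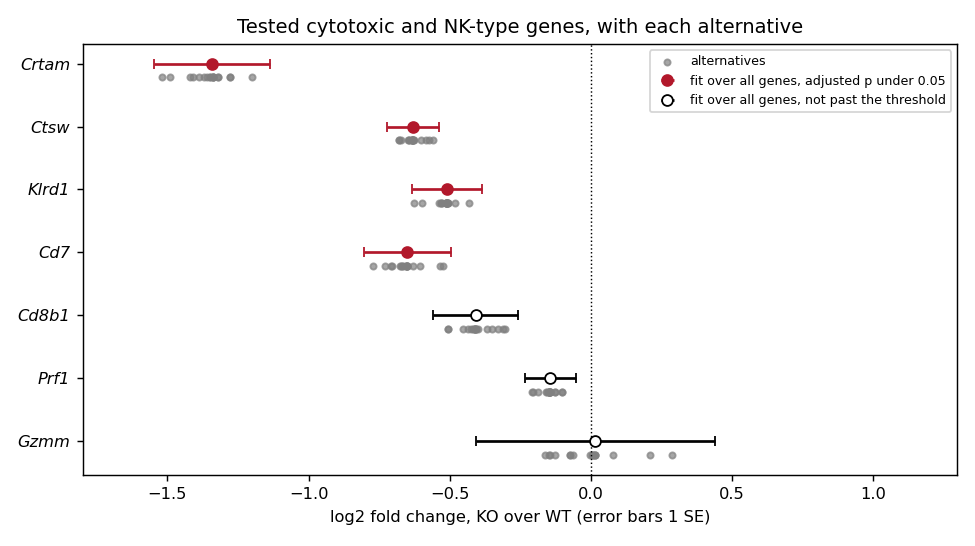
Log2 fold change, KO over WT, of the 7 genes with enough reads for the fit over all genes (large points, error bars 1 SE) and under each of 18 alternatives (grey points, 17 for Gzmm). Crtam, Ctsw, Klrd1 and Cd7 stay below 0 in all of them, and Gzmm spans 0, from -0.16 to 0.29.

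The chemokines were near the limit of detection. Ccl5, at chr11:83525778-83530518 on the minus strand, encodes CCL5, a chemokine made by memory and effector T cells. Reads numbered 22, 0, 0 and 8 in KO_2907, KO_2908, KO_2909 and KO_2910, and 4, 12, 17 and 2 in WT_2911, WT_2913, WT_2914 and WT_2915. The KO libraries held both the highest level (2.69 CPM) and the lowest, so the groups overlapped. The variance of the KO reads was 15.6 times that of counting noise, against 6.34 in WT. The pooled ratio was 1.13 (95% interval 0.668 to 1.89 for counting error), the exact two-sided permutation p was 1, and without KO_2907 the ratio was 0.396.

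Some other genes of effector cells were also uneven among the KO libraries, and they were picked with the Ccl5 values in view. Ccl3 had 38, 1, 6 and 22 reads in KO and 3, 0, 1 and 1 in WT, and Ccl4 had 5, 0, 0 and 3 in KO and 0, 0, 0 and 1 in WT. Tbx21, which encodes the effector factor T-bet, had 7, 0, 0 and 3 reads in KO and 0, 3, 9 and 2 in WT. KO_2907 and KO_2910 were thus the highest KO libraries for all 4 genes. Gzma, with 3, 0, 1 and 3 reads in KO, had that order too, but not every effector gene did. Gzmb had 0, 2, 0 and 1 reads in KO, Gzmc 9, 10, 18 and 12, and Fasl 75, 75, 95 and 66. Eomes was highest in KO_2908, at 7.02 CPM. Ccl9, the single chemokine of the list with enough reads for the fit, had a log2 fold change of 1.65 (SE 0.986, edgeR adjusted p = 0.456).

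Xcl1, at chr1:164931644-164935527 on the minus strand, encodes lymphotactin, a chemokine for dendritic cells that carry XCR1. It had 0, 2, 1 and 3 reads in KO and 0, 1, 2 and 0 in WT. With 6 reads against 3, the pooled ratio of 2.63 had a 95% interval from 0.561 to 16.2, and the exact two-sided permutation p was 0.286. Without KO_2910 the ratio was 1.68. The smallest p that 70 relabellings allow is 0.0286, and the 3 permutation tests were not adjusted for each other. A longer transcript, Gm20743, spans Xcl1 on the opposite strand and had 42 reads, so reads of the pair may not be separable.

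**Figure D3:**
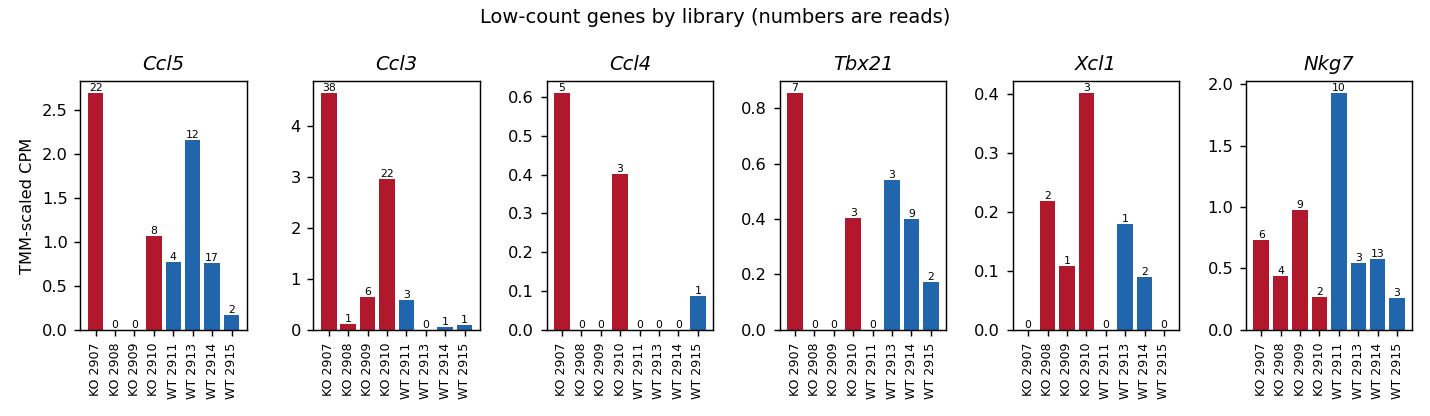
Level in TMM-scaled CPM of 6 low-count genes in each library, with the number of reads above each bar (red KO, blue WT). Ccl5, Ccl3, Ccl4 and Tbx21 are higher in KO_2907 and KO_2910 than in KO_2908 and KO_2909, while Xcl1 and Nkg7 show no such order.

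Sequence around transcript starts was available for 4 of the 10, Nkg7, Gzmm, Xcl1 and Prf1, from RefSeq (GRCm38.p6). Windows run from 250 bases before to 50 after a transcript start, and Gzmm has 2. They are described because RUNX and T-box factors are known regulators of cytotoxic genes, and 3 were picked, after values were seen and with no entry for Crtam, Ctsw, Klrd1 or Cd7, to set perforin, which was read, beside a pair near the detection limit. Capitals mark the RUNX letters TGTGGT, printed ACCACA where they lie on the other strand, and the T-box letters GGTGTGA.

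Prf1, chr10:61297586-61297885, plus strand: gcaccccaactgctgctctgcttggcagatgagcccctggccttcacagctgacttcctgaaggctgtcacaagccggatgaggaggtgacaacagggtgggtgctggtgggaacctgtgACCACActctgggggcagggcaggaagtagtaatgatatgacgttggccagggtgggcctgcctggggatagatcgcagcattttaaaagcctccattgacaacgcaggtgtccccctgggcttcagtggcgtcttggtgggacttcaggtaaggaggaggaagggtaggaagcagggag

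Nkg7, chr7:43436888-43437187, plus strand: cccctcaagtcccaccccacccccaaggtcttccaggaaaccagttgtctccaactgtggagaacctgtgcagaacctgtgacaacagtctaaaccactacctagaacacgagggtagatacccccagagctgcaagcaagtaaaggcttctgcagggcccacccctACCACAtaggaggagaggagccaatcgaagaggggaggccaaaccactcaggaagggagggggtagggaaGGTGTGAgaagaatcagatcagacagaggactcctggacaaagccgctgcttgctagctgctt

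Xcl1, chr1:164935473-164935772, minus strand: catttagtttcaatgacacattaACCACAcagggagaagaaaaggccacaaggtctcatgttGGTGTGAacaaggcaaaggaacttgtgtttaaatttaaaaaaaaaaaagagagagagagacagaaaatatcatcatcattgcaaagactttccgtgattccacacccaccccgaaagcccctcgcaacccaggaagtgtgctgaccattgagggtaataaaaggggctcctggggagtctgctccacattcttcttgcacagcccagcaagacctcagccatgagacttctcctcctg

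RUNX letters were present on either strand in a window of all 4 genes, but in only 1 Gzmm window and not the other. Of all 32851 windows, 16.8% held them. Counts here are by gene and shares by window, which are unlike measures where a gene has more than 1 window. They began 130 bases before the start in Prf1, 83 in Nkg7 and 227 in Xcl1. T-box letters were present in Nkg7 (13 bases before the start), in Xcl1 (188) and in 1 Gzmm window, against 3.98% of all windows. They were not in the Prf1 window. Starts here are those of RefSeq transcripts. The Nkg7 T-box match and the Gzmm window with T-box letters lie inside the gene spans given above. TCF/LEF letters (CTTTGA) were in none of the 5 windows, against 16.0% of all windows, and E-box letters (CANNTG), which can overlap other motifs, were in windows of 3 genes, against 72.3%. A match of letters does not show that a factor binds.

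Beyond the 10 genes, 65 others from 5 lists of the cytotoxic programme were read from the same fit. Of these, 35 were tested, of which 9 were called higher, 2 lower and 24 neither, against 3.98% and 2.41% over all genes. The lists were chosen with earlier results of these data known, so nothing is read from these counts. The counts for each list below stand beside the same shares, again with nothing read from them. The median log2 fold change of the 35 was 0.11. When WT_2911 and WT_2914 were left out together, 5 of these genes were called in either direction.

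Among the granule and killing genes, 3 of 12 tested were higher and 1 lower, with a median log2 fold change of 0.14. Serpinb6b, an intracellular serpin, rose from 10.1 ± 1.67 to 21.2 ± 2.87 CPM (SD, n = 4 each; log2 fold change 1.11, SE 0.143), and its libraries did not overlap. Srgn, the proteoglycan that packs granules, rose (log2 fold change 0.32, edgeR adjusted p = 0.000377). Ctsc, the protease that activates granzymes, had 0.24 (edgeR adjusted p = 0.0344) and lost its call in 9 of 18 alternatives, with adjusted p up to 0.13. Lyst, needed for lysosome and granule traffic, had -0.20 (edgeR adjusted p = 0.0378) and lost its call in 10 of 18, with adjusted p up to 0.383. The exocytosis genes Unc13d (0.03), Rab27a (0.11), Stx11 (0.22) and Stxbp2 (-0.01), the lysosome gene Lamp1 (0.11) and the death ligand genes Fasl (0.24) and Tnfsf10 (-0.03) were not called.

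Of the NK-type receptors and adaptors, 1 of 6 tested was called, with a median of 0.05. Il2rb, the IL-2 and IL-15 receptor beta chain, rose 2.39-fold (log2 fold change 1.26, SE 0.107). Cd226, an activating receptor, had 0.07, Hcst, the adaptor DAP10, 0.07, Cd160 -0.08 and Il18rap 0.03, none of which passed. Some receptors of this list were nearly unread over the 8 libraries, with 7 reads of Ncr1, 9 of Klrb1c, 2 of Klre1 and 2 of Klrg1.

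Of 15 tested transcription factors, 4 were higher and 1 lower, with a median of 0.09. Runx3, the CD8 and cytotoxic fate factor, rose from 91.8 ± 9.90 to 121.6 ± 12.9 CPM (SD, n = 4 each; log2 fold change 0.41, edgeR adjusted p = 0.00231), with the call lost when WT_2911 and WT_2914 were left out together (0.0931). Id2, an inhibitor of E proteins, rose by 0.80, Gata3 by 0.35 and Ikzf3, which encodes Aiolos, by 0.25, while Tcf7, which encodes TCF-1, fell by 0.29. The Gata3 call was lost without the same WT pair (edgeR adjusted p = 0.0549), and that of Ikzf3 without that pair, without KO_2910 or without WT_2915 (up to 0.115). Zbtb7b (-0.05), Runx1 (0.08), Eomes (0.26), Id3 (0.62), Prdm1 (0.03), Nfil3 (0.27), Tox (0.09), Bcl11b (-0.10), Lef1 (-0.06) and Patz1 (0.02) were not called. Tbx21 had too few reads for the fit.

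**Figure D4:**
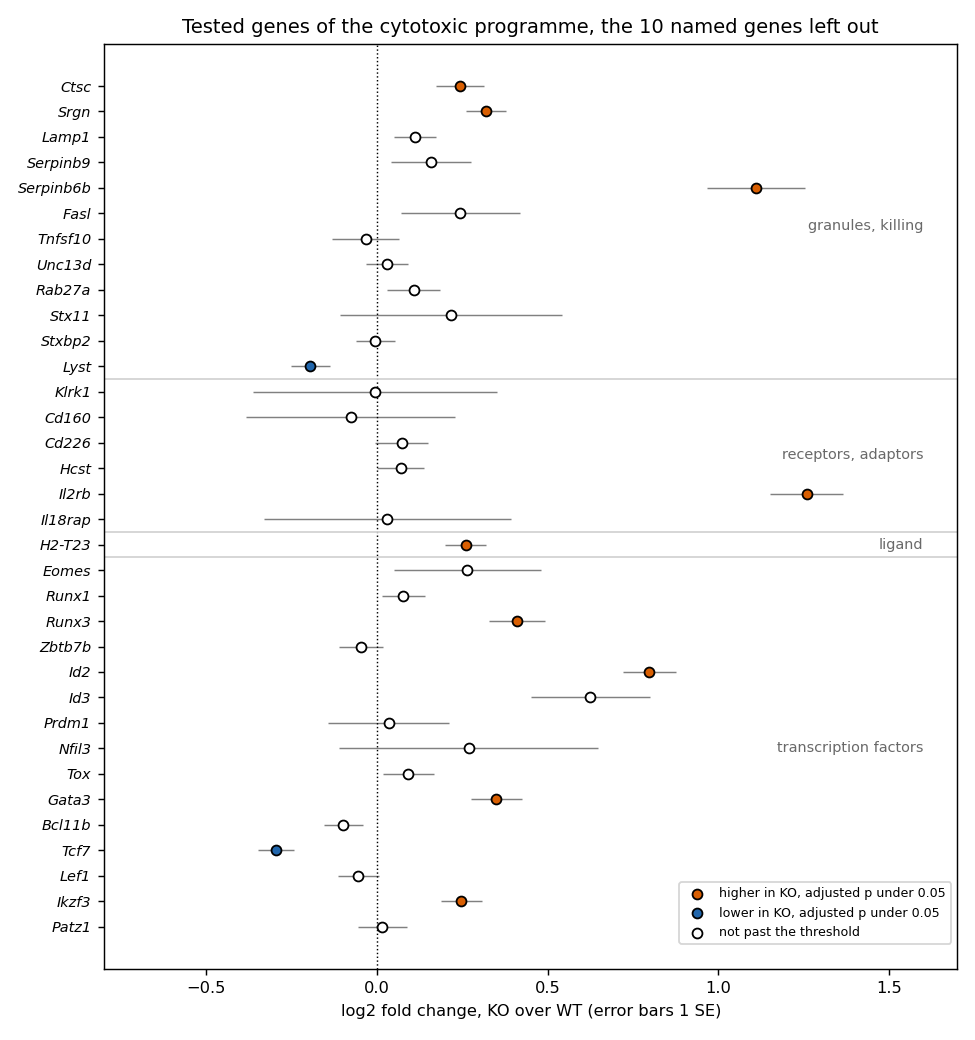
Log2 fold change, KO over WT, of tested genes from the lists, with the 10 named genes and Ccl9 (1.65, SE 0.986) left out. Error bars are 1 SE. Serpinb6b, Il2rb and Id2 stand farthest to the right, and Tcf7 and Lyst are the genes past the threshold on the left.

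The tested genes beside those that were lower in KO are given next to the 6.39% called among all genes, with nothing read from their few calls. Within 200 kb of the Ctsw start, 0 of 20 tested genes passed the edgeR threshold, with log2 fold changes from -0.41 for Fosl1 to 0.20 for Rnaseh2c. Near Cd7, 1 of 7 passed, Narf (0.29, edgeR adjusted p = 0.0221), which starts at the upstream edge of the window and lost its call without KO_2909, WT_2913 or WT_2915. Near Klrd1, neither tested gene passed, with Gabarapl1 at 1.10 (SE 0.375, edgeR adjusted p = 0.0797) and Klrk1 at -0.01. Near Crtam the single tested gene, Ubash3b, had -0.05 (edgeR adjusted p = 0.818).

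Prf1 showed the reverse arrangement. Adamts14, an extracellular protease gene that starts 24.4 kb upstream of Prf1, fell by 1.68 in log2 fold change (SE 0.164, edgeR adjusted p = 1.58e-08), while Prf1 had -0.14 and was not called. The other 4 tested genes within 200 kb of Prf1 did not pass. The windows were chosen after the values of the named genes were known.

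**Figure D5:**
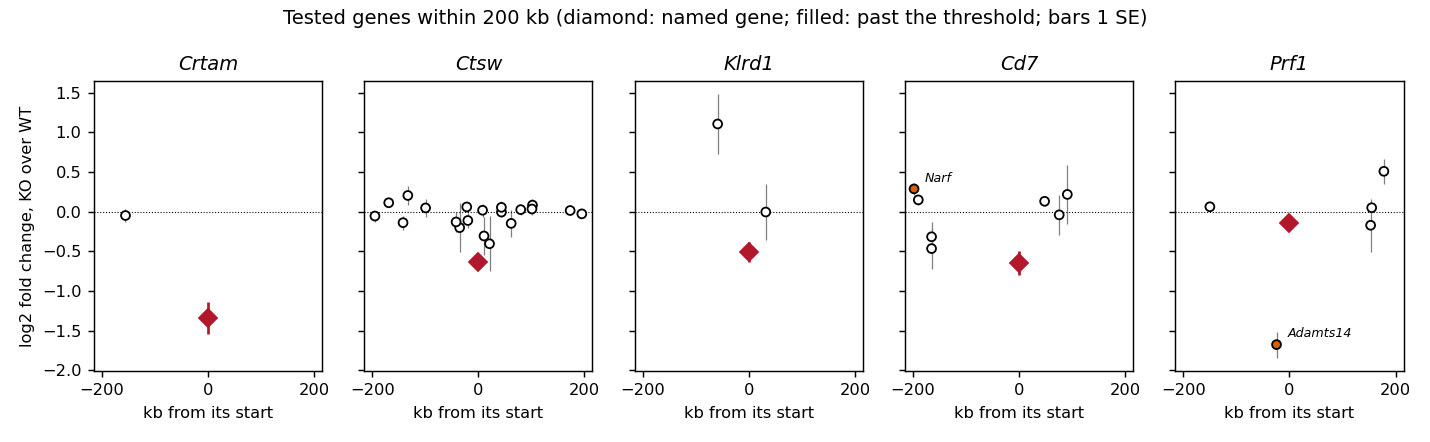
Log2 fold change of tested genes within 200 kb against distance in kb from the start of each named gene, in its direction of transcription (diamond, the named gene; filled circles, other genes past the threshold; bars 1 SE). None of the 20 genes around Ctsw is past the threshold, with the lowest at -0.41, and Adamts14 (-1.68) lies below Prf1 (-0.14).

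Markers of other cell types were read in the same libraries. The 8 CD4 T cell markers summed to 4770 to 4940 CPM in KO and 4620 to 4690 CPM in WT, although Cd4 itself fell by 0.19 (edgeR adjusted p = 0.0242), a call lost in 4 of 18 alternatives, among them those without KO_2907, WT_2911 or WT_2913 (up to 0.194). The 7 NK cell markers, of which Eomes gave most reads, summed to 5.84 to 8.99 CPM in KO and 6.49 to 7.39 CPM in WT. Of the 7, only 1, Eomes, had enough reads for the fit, and it was not called. Over all libraries Klra8 had 1 read, Klre1 2, Ncr1 7, Klrb1c 9, Fcer1g 40 and Tyrobp 52. The most in any library were 11 for Fcer1g, in KO_2907, and 17 for Tyrobp, in WT_2915. The pair Cd8a and Cd8b1 summed to 9.65 to 14.7 CPM in KO and 13.2 to 18.2 CPM in WT, nearly all from Cd8b1.

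Of the 7 gamma delta and innate-like T cell markers, 1 was tested. Trdc, the delta receptor constant gene, rose from 9.95 ± 2.46 to 15.1 ± 3.41 CPM (SD, n = 4 each; log2 fold change 0.60, edgeR adjusted p = 0.0426), with overlapping libraries and a call lost in 9 of 18 alternatives, among them those without KO_2908, KO_2909, KO_2910, WT_2913 or WT_2915 (up to 0.178). Summed, these markers spanned 11.8 to 20.4 CPM in KO and 8.40 to 14.3 CPM in WT. B cell markers spanned 357 to 412 CPM in KO and 443 to 480 CPM in WT, nearly all from Ighm, the immunoglobulin mu heavy chain gene. Ighm fell by 0.27 in log2 fold change (edgeR adjusted p = 0.00132), and its call was lost in 0 of 18 alternatives. The B cell marker Ms4a1 had 3 reads in KO and 0 in WT, and Pax5 had 1 and 0. Myeloid and dendritic cell markers spanned 34.3 to 45.1 CPM in KO and 26.7 to 53.3 CPM in WT. Among them Lyz2 was uneven, with 38, 99, 113 and 34 reads in the KO libraries and 131, 0, 3 and 124 in WT. It was not called (log2 fold change 0.02, SE 1.28, edgeR adjusted p = 0.996). The part of the B cell, gamma delta and myeloid lists in the differences of Crtam, Ctsw, Cd7 and Klrd1 was not tested.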

How the data were processed

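The authors deposited whole-number read counts for 53465 Ensembl genes and a normalized signal table of 16418 genes, in which each value is the count divided by a size factor per sample. The submitters' processing notes name DESeq2 1.22.2, R 3.5.3, CASAVA 1.8.2 and FastQC, with mm10 as build. For the aligner, the counter, the annotation and the use of strand, the choice is not given in the sources used here. The kit, a TruSeq RNA kit per the labels' protocols, does not mark strand.

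The deposited counts went into edgeR 4.0.16 under R 4.3.3 (TMM, filterByExpr, robust quasi-likelihood F test), with Benjamini-Hochberg adjustment over 11772 genes. A standard error is the size of the log2 fold change divided by the root of F. Positions, exon lengths and overlaps came from GENCODE M21, which held 99.8% of the gene identifiers. For the 3 genes below the filter, reads were summed by group, and the exact conditional 95% intervals cover counting error only, as do limits for a count of 0, set at 3 reads. Within each group, every pair of samples differed beyond sampling noise (chi-square per gene 2.67 to 12.1). The fit was tested on simulated counts.

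The 10 genes and the lists were chosen with earlier results of these data known. Named genes are the 10, Satb1, and from the lists each called gene, all tested transcription factors and others needed to say how a list stands. Alternatives were DESeq2 1.42.0, limma 3.58.1 (voom with sample weights, and trend on log2 of the deposited normalized signal plus 1), RLE factors, no TMM, no filter, 1 CPM in 4 samples, a non-robust fit, thinning to 5227758 reads, leaving out each sample, and leaving out WT_2911 and WT_2914 together.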

Additional observations from a re-analysis of the deposited data

How the results depend on the processing

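Crtam, Ctsw and Cd7 kept their direction and their call in all 18 alternatives, with log2 fold changes of -1.52 to -1.20, -0.681 to -0.559 and -0.772 to -0.525. Klrd1 did so in 17 of 18 and lost its call without WT_2915. The Cd7 call was narrowly kept without WT_2913, the library where Cd7 was highest (log2 fold change -0.525, edgeR adjusted p = 0.0469). Prf1 and Cd8b1 were not called in any of them, with edgeR, DESeq2 or limma adjusted p from 0.28 and from 0.0524 up. Leaving out each sample in turn gave 562 to 836 called genes against 752, 3 to 4 of the named genes against 4, and 9 to 12 of the list genes against 11. Without WT_2911 and WT_2914 together, 481 genes and 5 list genes were called, where fewer samples were fitted.

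Gzmm turned below 0 with limma-voom (-0.162), library size without TMM (-0.00147), limma-trend (-0.0724) and without WT_2911 and WT_2914 together (-0.0628), and leaving out each sample in turn gave -0.148 to 0.289. It had too few reads for the fit after thinning. Leaving out each sample moved the pooled ratio of Nkg7 between 0.747 and 1.28, that of Ccl5 between 0.396 and 1.55 and that of Xcl1 between 1.68 and 3.93. The cause was not tested. No paired analysis was possible because the groups share no sample numbers. At 5227758 to 21998174 reads a library, genes below about 1 CPM rest on few reads.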

Other observations

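Some low-count genes outside the 10 stood apart in their pooled reads, and these were picked after their values were seen. Gzmk, which encodes granzyme K, had 1 read in KO (in KO_2910) and 15 in WT (0, 4, 10 and 1), a pooled ratio of 0.0876 (95% interval 0.00208 to 0.569 for counting error). Fcgr3, an Fc receptor of NK and myeloid cells, had 14 reads in KO and 50 in WT, a ratio of 0.368 (0.188 to 0.676). Ccl3 went the other way at 17.6 (7.18 to 56.0), with 38 and 22 of its 67 KO reads in KO_2907 and KO_2910. None of these was tested across genes.

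For the 5 named genes that averaged 10 CPM or more, the genes most alike over the 8 samples were read from 8495 others by Pearson's r, as a description in which samples share group and depth. By log2 CPM, Ctsw was most like Esr1, the oestrogen receptor gene, which also fell in KO (r 0.966, log2 fold change -0.43, edgeR adjusted p = 0.0137), then Fam78a (0.964) and Znrf1 (0.963). Klrd1 was most like Fndc10 (r 0.981), Exosc8 (0.979) and Cdadc1 (0.966), and Cd7 like Pik3ip1 (0.984), Armc7 (0.983) and Ostf1 (0.966). Prf1 was most like Commd4 (r 0.964), Ino80c (0.958) and Tep1 (0.942), and Cd8b1 like Cep57 (0.985), Snx27 (0.945) and Kcna2 (0.943). By deviations from the group means, Ripor1 was among the 3 genes most like both Ctsw (r 0.960) and Cd7 (0.961), Ino80c was again among those of Prf1 (0.945) and Cep57 among those of Cd8b1 (0.972).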
